A study of Zea mays with 2182 samples.

Results

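Single cells with transcripts of 21PHAS loci were compared with cells without them in maize anthers of 0.5, 0.75 and 1.0 mm. The cells were chosen by their own counts: a cell with at least 1 unique molecular identifier (UMI, a tag that counts 1 captured molecule) from any row named 21PHAS was called positive, and a cell with 0 such UMIs negative. Of the 2182 cells in the whole table, 80 were positive cells of these lengths, which is 20.9% of the cells analysed, and the rest of those analysed (79.1%) were negative. The positive cells numbered 25 at 0.5 mm, 23 at 0.75 mm and 32 at 1.0 mm. All cells came from untreated greenhouse plants of the fertile inbred line W23, and the labels vary only the anther length and the set named in the cell titles. Anthers were fixed, digested and dispensed as single cells with a Hana sorter, and polyadenylated RNA was counted with CEL-Seq2, which tags transcripts near their 3' ends. Labels do not say which plant or anther gave a cell, although the design text gives at least 2 plants per stage, so the cells of a length and class were summed to 1 sample. The comparison therefore rests on 6 sums, and its p-values measure scatter between lengths, not between plants.

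Phased small interfering RNAs are cut in regular steps from long, non-coding, polyadenylated transcripts of PHAS loci. In grass anthers the 21-nucleotide class appears before meiosis: the microRNA miR2118 directs cleavage of the 21PHAS transcripts, and the protein SGS3 works with the polymerase RDR6 to make the cleaved RNA double-stranded before a Dicer enzyme cuts it. The 24-nucleotide class follows later, with miR2275 as its trigger. The table counted the long transcripts and not the small RNAs themselves.

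The cells came from 11 pools, a pool being the cells that share a set, a set number and a length in their titles, and 9 pools held a positive cell. Over all pools together positive cells were the deeper ones, with a median of 2055.5 UMIs per cell against 1204 in the negative cells. At 0.5 mm the medians were 2333 against 1985.5. Within pool 8 of set 8.18.21, which held 24 of the positive cells of 0.5 mm, positive cells were shallower, at 2341 against 2616. For whole lengths again, the medians follow. They were 1842 against 1064.5 at 0.75 mm, while cells of 1.0 mm had 2357 against 1049. With every cell thinned to 500 UMIs, 15 cells at 0.5 mm had a 21PHAS UMI (13.8% of the cells of that length), against 25 (22.9%) before thinning. At 0.75 mm 12 cells (9.02%) had one after thinning and 23 (17.3%) before. For 1.0 mm these numbers were 19 (13.5%) and 32 (22.7%). The exact 95% intervals of the unthinned shares were 15.4 to 32.0%, 11.3 to 24.8% and 16.1 to 30.5%. They cover counting error only, not the spread between pools or plants, so they cannot tell whether the lengths differ. Single pools ran from 0 to 28.9% at 0.5 mm, 6.25 to 29.4% at 0.75 mm and 0 to 32.4% at 1.0 mm. The same well numbers recurred among the positive cells. Counted after the values were seen, 10 well numbers held 3 or more positive cells over the pools, and with them 37 of the 80 positive cells and 16 negative cells. The wells were picked for their positive cells, so this balance follows in part from the choice. Cells in these wells had a median of 2044 UMIs against 1267 elsewhere, and values without them stand beside the results below. At 1 or 2 well numbers from a cell with at least 30 21PHAS UMIs, 10 of 27 other cells were positive (37.0%). In other wells of the same pools 54 of 260 were (20.8%). In pool 5 of set 7.21 at 0.75 mm it was the reverse, with 0 of 4 against 12 of 53. A cause was not tested.

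Most of the signal sat in few cells. The positive cells held 1195 21PHAS UMIs, of which 21 cells with 5 or more UMIs held 1096 (91.7%). These strong cells numbered 6 at 0.5 mm, 7 at 0.75 mm and 8 at 1.0 mm, and their median was 30 UMIs, with a lowest of 5. A further 22 cells had 2 to 4 UMIs and 37 had exactly 1. Around the limit of 5 UMIs, 4 cells had 5 and 6 cells had 4, so the limit does not fall in a gap. The cell with the most came from pool 8 of set 8.18.21 at 0.5 mm and had 4.14% of its 8410 UMIs on 21PHAS loci, which is 29.1% of all 21PHAS UMIs. The second, at 0.75 mm, had 7.55% of its 1842 UMIs on them, and the third, at 1.0 mm, 92 of 3899 UMIs (2.36%). These 3 cells held 48.5% of the 21PHAS UMIs. Positive cells were spread unevenly over pools: 24 of 83 cells in pool 8 of set 8.18.21 at 0.5 mm were positive, 14 of 59 in pool 5 of set 7.21 at 0.75 mm and 23 of 71 in pool 2 of set 8.18.21 at 1.0 mm. Pool 1 of set 1.4.21 had 0 positive cells of 10 both at 0.5 mm and at 1.0 mm, but 5 of 17 at 0.75 mm. These values chose the cells and are given as a description.

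**Figure D1:**
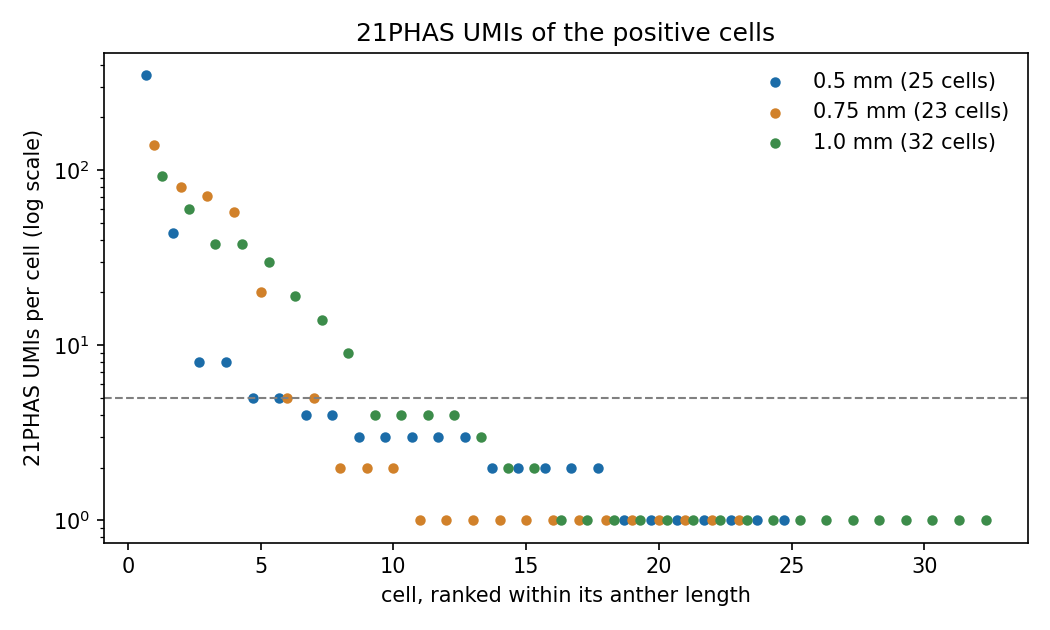
21PHAS UMIs in each of the 80 positive cells (vertical axis, log scale), ranked within the anther lengths of 0.5, 0.75 and 1.0 mm; the dashed line marks 5 UMIs. At each length 6 to 8 cells reach the line, and the highest cell of 1.0 mm holds 92 UMIs.

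Most of the strong cells held transcripts of many loci. Of the table's 21PHAS rows 150 had a UMI in the positive cells and 1 had none. The cell with the most UMIs had UMIs from 82.1% of all 21PHAS loci, the second from 83 loci and the third from 61 loci. Over the 21 strong cells the median was 24 loci, with a lowest of 2. No locus dominated, since the 5 loci with the most UMIs held 10.1% of the total, and 92 loci were detected at all 3 lengths. The locus with the most UMIs, 21PHAS_NO350, had 27 UMIs in 13 cells, and the next, 21PHAS_NO144, had 26 UMIs, also in 13 cells. One strong cell differed from the rest, with its 5 UMIs from only 2 loci.

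**Figure D2:**
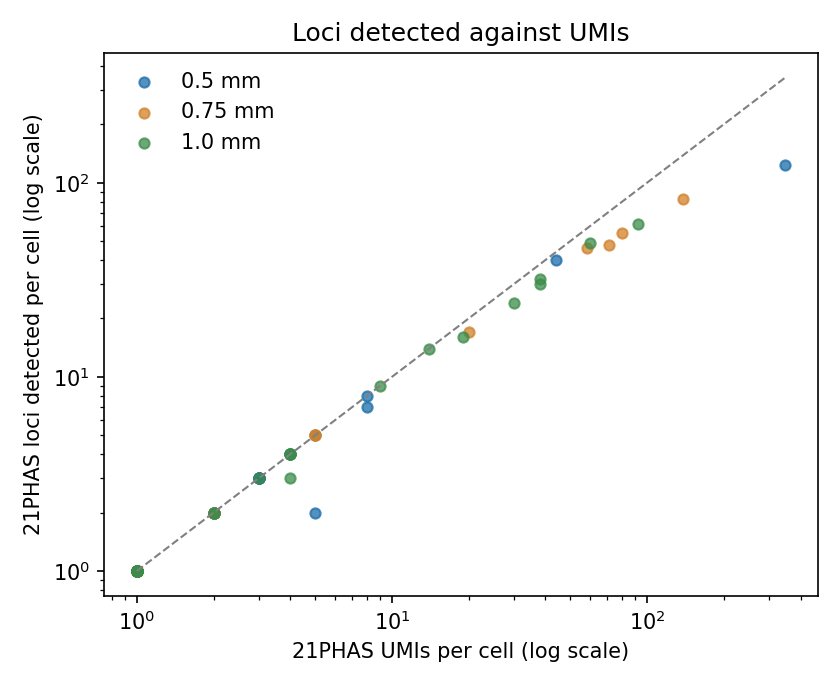
Number of 21PHAS loci detected in a cell against its 21PHAS UMIs, both on log scales, for the 80 positive cells of 0.5, 0.75 and 1.0 mm; on the dashed line every UMI comes from a different locus. Cells with few UMIs lie on or near the line, and the cell with the most UMIs lies below it, at 82.1% of all 21PHAS loci.

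Transcripts of 24PHAS loci, which did not enter the choice of cells, were found in the same strong cells. A 24PHAS UMI was present in 9 of the 21 strong cells (42.9%, exact 95% interval 21.8 to 66.0%), in 1 of 22 cells with 2 to 4 21PHAS UMIs, in 0 of 37 cells with exactly 1, and in 1 negative cell (0.330% of them, 0.00836 to 1.83%). By length the strong cells with a 24PHAS UMI numbered 1 of 6 at 0.5 mm, 4 of 7 at 0.75 mm and 4 of 8 at 1.0 mm. Of 23 24PHAS UMIs in all, 21 lay in the strong cells, at 244.4 CPM (UMIs per 1000000 UMIs), against 1.74 CPM in the negative cells. The strong cells were deeper, with a median of 3158 UMIs, so the shares are not at equal depth. The levels in CPM allow for depth and differ in the same direction.

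The 24PHAS UMIs came from few loci. Only 8 of 75 24PHAS rows were detected, 24PHAS_NO24 with 5 UMIs in 5 strong cells, 24PHAS_NO28 and 24PHAS_NO31 with 4 UMIs each in 3 strong cells. In cells of 1.5 mm, 69 of the 75 loci were detected and these 8 loci held 9.66% of 1304 24PHAS UMIs. At 1.75 mm the 8 loci held 10.0% of 1684 UMIs. The 8 loci were picked because they had a UMI at the shorter lengths, so their 100% share there is fixed by the choice.

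Cell type markers gave little to place the positive cells. The tapetum and vascular lists had 0 rows in the table. The receptor kinase gene CR4, the only epidermis marker with a row, had 3 UMIs in the positive cells and 12 in the negative cells (13.3 and 20.8 CPM). The recombination gene RAD51B, the only germinal and meiosis marker with a row, had 6 and 14 UMIs (26.6 and 24.3 CPM). Of the pollen markers 3 of 6 rows were at 0 in both classes, and the summed level was 1413 to 1872 CPM over the lengths in positive cells and 1248 to 1487 CPM in negative cells. No cell type is therefore assigned to the positive cells.

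In a clustering of the analysed cells without PHAS and microRNA rows, the positive cells fell in all 8 clusters. The share of positive cells ran from 1 of 39 cells in cluster 5 to 13 of 30 in cluster 8. Strong cells were found in clusters 3, 4, 7 and 8, with 8 of the 21 in cluster 7. That cluster had 33 cells, 11 of them positive, and held 65.4% of all 21PHAS UMIs at 10231 CPM. Its median depth was 1616 UMIs per cell, against 2238.5 in cluster 4, where 18 of 50 cells were positive.

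Few genes other than PHAS loci were called different between positive and negative cells, and with 6 sums smaller differences can be missed. Of 3438 genes tested over the 6 sums, with length as a block, 29 were higher in the positive cells (0.844%) and 6 lower (0.175%) at an adjusted p under 0.05, and 8.96% had an unadjusted p under 0.05. Only 2 of the 35 genes carry a symbol in the table, the aquaporin NIP1-1 among the higher and the chlorophyll-binding protein gene CAB1 among the lower. The number of calls depends on single lengths: 10 genes were higher and 0 lower without 0.5 mm, 5 and 0 without 0.75 mm, and 27 and 4 without 1.0 mm. Without length as a block, 0 genes were called and 87 passed 0.05 before adjustment. Without the well numbers that recurred, 12 genes were higher and 1 lower.

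**Figure D3:**
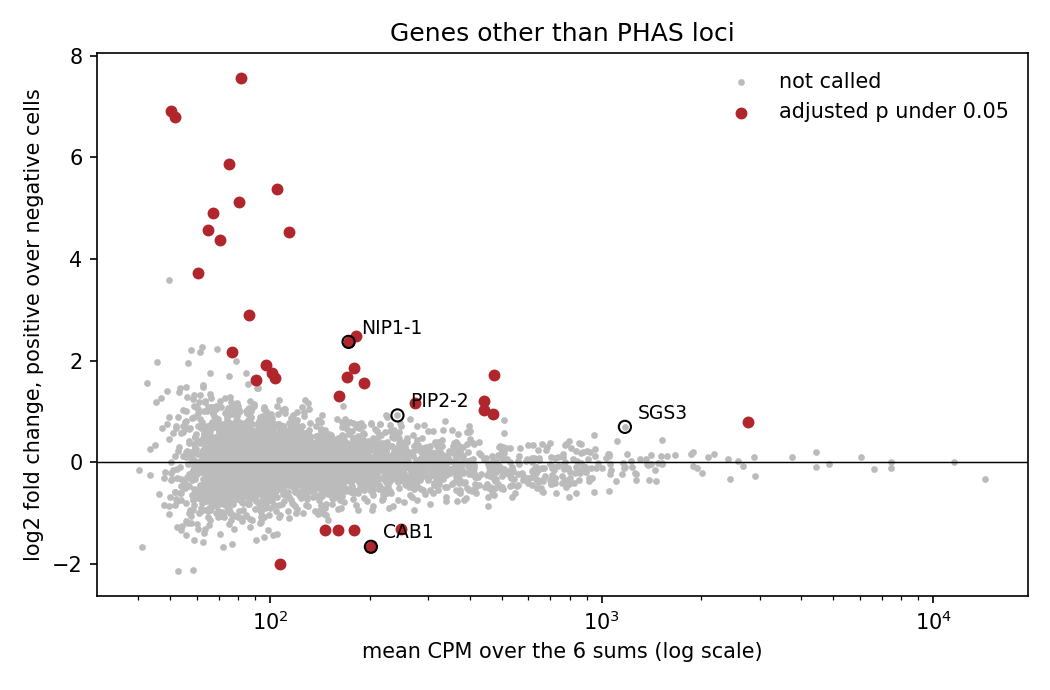
Log2 fold change of positive over negative cells against mean CPM (log scale) for the 3438 genes tested, with the 35 called genes in red and NIP1-1, CAB1, SGS3 and PIP2-2 circled. The 29 higher genes reach far larger fold changes than the 6 lower genes, and SGS3 and PIP2-2 lie above 0 without being called.

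NIP1-1 encodes a nodulin 26-like intrinsic protein, a membrane channel of the aquaporin family. It had 18, 19 and 21 UMIs in the positive cells at 0.5, 0.75 and 1.0 mm, or 236.01, 423.4 and 201.9 CPM. In the negative cells it had 4, 6 and 17 UMIs, or 14.6, 37.3 and 120.996 CPM. Each positive sum was above every negative sum, and the difference was smallest at 1.0 mm. Of the 3438 genes tested, 310 had sums that did not overlap between the classes, in either direction. The means were 287.1 ± 119.3 and 57.6 ± 56.1 CPM (SD, n = 3 lengths), and the log2 fold change was 2.37 (SE 0.36, adjusted p = 5.65e-08, edgeR). The negative sums alone would not have passed the filter on low counts, since only that at 1.0 mm was high enough. NIP1-1 was thus tested through its positive sums, and the p-value is given as a value and not as support. Without 0.75 mm the fold change was 1.92 (SE 0.50) and the adjusted p 0.124, and without length as a block it was 2.38 (SE 0.63) with an adjusted p of 0.689. With length and cluster together as the block it was 1.85 (SE 0.66) and not called (adjusted p = 0.313).

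The NIP1-1 level was highest in the strong cells, at 507.0 CPM over the 3 lengths against 46.9 CPM in the negative cells. In the cells between these classes the order differed by length. At 0.5 mm it was at 14.6, 90.1, 104.8 and 510.8 CPM at 0, 1, 2 to 4 and 5 or more 21PHAS UMIs. At 1.0 mm it had 0 UMIs in the 17 cells with 1 21PHAS UMI, which allows up to 68.7 CPM, and at 0.75 mm it was at 306.5 CPM in those with 1 and had 0 UMIs in the 3 cells with 2 to 4. In the strong cells it was 510.8, 574.2 and 462.9 CPM at the 3 lengths, which are closer to each other than those of all positive cells. Strong against negative cells, its log2 fold change was 3.21 (SE 0.46, adjusted p = 2.11e-05), and here too the negative sums alone would not have passed the filter. Among the cells with exactly 1 21PHAS UMI, an alternative chosen after seeing the data, it was 0.83 (SE 0.92, adjusted p = 0.998). A NIP1-1 UMI was present in 15 of the 21 strong cells (71.4%) and in 21 negative cells (6.93%). After thinning to 500 UMIs it was present in 6 strong (28.6%) and 8 negative cells (2.64%). The 13 cells with at least 19 21PHAS UMIs, a limit set after the values were seen, all had a NIP1-1 UMI, with 1 to 7 each.

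Within pools the direction of NIP1-1 held in 5 of the 6 pools with at least 3 cells of each class. In pool 8 of set 8.18.21 at 0.5 mm it was at 241.8 CPM in positive and 13.2 CPM in negative cells. In pool 5 of set 7.21 at 0.75 mm it was at 472.6 and 29.1 CPM, and in pool 2 of set 8.18.21 at 1.0 mm at 272.1 and 116.9 CPM. The exception was pool 5 of set 8.18.21 at 1.0 mm, with 81.6 CPM from 2 UMIs in positive and 147.2 CPM from 8 UMIs in negative cells. With the pool as a block the log2 fold change was 2.29 (SE 0.42, adjusted p = 2.60e-05), again with negative sums that alone would not have passed the filter on low counts. Without the recurring well numbers it was 2.90 with an adjusted p of 0.0155, and without the cell with the most 21PHAS UMIs at each length 2.06 and called. In both fits the negative sums alone would again not have passed that filter, so these calls are values and not support.

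The 28 other higher genes have no name in the table. Of these, 10 had a fitted log2 fold change above 4, and 87.9% of their UMIs lay in the 21 strong cells. Since the fold change, to which the strong cells contribute, picked them, where their UMIs lay is a description. Each had a UMI in 7 to 13 of those cells and in 0 to 4 negative cells, and 3 had none in the negative cells. Their summed level was 27.8 CPM in cells with no 21PHAS UMI, 82.0 CPM in those with 1 and 3160 CPM in the strong cells. Zm00001d023984 had 19, 6 and 11 UMIs in the positive cells of 0.5, 0.75 and 1.0 mm, or 249.1, 133.7 and 105.8 CPM. It had 0 UMIs in the negative cells, which allows up to 5.21 CPM over the group, so it was at least 30.7-fold higher. Zm00001d048785 had 13, 5 and 2 UMIs in the positive cells and 0 in the negative cells, and was at least 17.1-fold higher. Both passed the filter on low counts only through the positive cells and were picked for their fold changes, so their p-values are not given as support. Whether such genes overlap PHAS loci was not tested, since coordinates were not used here.

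CAB1 encodes a chlorophyll a/b binding protein of the light-harvesting antenna. It had 0, 3 and 22 UMIs in the positive cells at 0.5, 0.75 and 1.0 mm, or 0, 66.9 and 211.5 CPM, where 0 UMIs at 0.5 mm allows up to 39.3 CPM. The negative cells had 40, 62 and 56 UMIs, or 145.6, 385.4 and 398.6 CPM. Positive cells were lower at each length, but the positive sum at 1.0 mm was above the negative sum at 0.5 mm. The log2 fold change was -1.66 (SE 0.34, adjusted p = 0.000293), with 92.8 ± 108.1 and 309.8 ± 142.4 CPM (SD, n = 3 lengths). The positive sums alone would not have passed the filter on low counts, so this p-value too is given as a value and not as support. The call was lost without 0.5 mm (adjusted p = 0.0651), without 0.75 mm (0.473), without length as a block (0.9995), with length and cluster as block (0.363), by DESeq2 (0.9998) and without the recurring wells (0.301). With pool 7 of set 8.18.21 included the log2 fold change was -0.55 (SE 0.31, adjusted p = 0.628). In pool 2 of set 8.18.21 at 1.0 mm CAB1 was higher in positive cells, at 257.8 against 166.96 CPM.

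A CAB1 UMI was present in 51 negative cells (16.8%) and in 13 of the 80 positive cells (16.2%). After thinning to 500 UMIs the shares were 9.57% and 5.00%. Of the 6 nuclear photosynthesis rows 4 were tested, and 1 was lower and 0 higher. Their median log2 fold change was -1.34, against -0.03 over all genes tested. The list's summed level in positive and negative cells was 78.7 and 211.1 CPM at 0.5 mm, and 222.9 and 702.3 CPM at 0.75 mm. At 1.0 mm it was 461.5 and 711.7 CPM. CAB1 alone made up 145.6, 385.4 and 398.6 CPM of the negative levels, so this sum in large part repeats CAB1. In the positive cells of 0.5 mm CAB1 had 0 UMIs and the list as a whole 6. Without CAB1 the positive cells were lower at 0.75 and 1.0 mm but not at 0.5 mm. Of the genes of the plastid genome 0 of 22 tested were called, with a median of 0.01.

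The other 5 lower genes have no name in the table. Zm00001d025522 had 2, 1 and 7 UMIs in the positive cells, or 26.2, 22.3 and 67.3 CPM, and 53, 30 and 21 UMIs in the negative cells, or 192.9, 186.5 and 149.5 CPM. The groups did not overlap, as for 310 of the 3438 genes tested, and the log2 fold change was -2.01 (SE 0.44). Zm00001d042023 had 4, 7 and 8 UMIs in positive and 95, 32 and 18 UMIs in negative cells, with a log2 fold change of -1.34 (SE 0.37). Neither gene would have passed the filter on low counts through the positive cells alone, and both were picked for their fold changes. Their p-values in this comparison are therefore not given as support. Both calls were lost without 0.5 mm and without 0.75 mm, and that of Zm00001d042023 also without 1.0 mm (adjusted p = 0.106).

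Among the genes of the small RNA pathway, SGS3 was the only one of 33 listed with a row under its symbol. The others may have rows under gene IDs, which could not be named here. In the positive cells SGS3 was at 1311, 1493 and 1558 CPM at 0.5, 0.75 and 1.0 mm, with at least 67 UMIs in each sum. The negative cells were at 673.3, 938.5 and 1075 CPM. All positive sums were above all negative sums, but 310 of the 3438 genes tested likewise had no overlap, in either direction. The difference missed the threshold, with a log2 fold change of 0.70 (SE 0.22, adjusted p = 0.108) and means of 1454 ± 127.8 and 895.5 ± 204.1 CPM (SD, n = 3 lengths). SGS3 was not restricted to positive cells, since 64.4% of the negative cells had a UMI.

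In the strong cells SGS3 stood at 2593, 1988 and 1988 CPM at the 3 lengths. Strong against negative cells, it was higher, with a log2 fold change of 1.19 (SE 0.30, adjusted p = 0.0260). With each strong cell paired with the negative cell nearest in depth at its length, the log2 fold change was 1.29 (SE 0.34, adjusted p = 0.00837). Paired within pools it was 1.24 (SE 0.43) and not called (adjusted p = 0.153). At 1.0 mm the pairing did not equalise depth: the strong cells reached 12399 UMIs without PHAS rows and summed to 36722, while no negative cell exceeded 3942 and the paired ones summed to 23332. Without the recurring wells the log2 fold change was 1.33 (SE 0.37, adjusted p = 0.0122), in a fit where the median over all genes was -0.36. Of the 21 strong cells 20 had an SGS3 UMI, with a median of 7 and up to 32, and the cell without one had 58 21PHAS UMIs. After thinning to 500 UMIs, 9 of 21 strong cells (42.9%) and 35.0% of the negative cells had one. Over the 3 lengths together the SGS3 level was 1018 CPM at 1 21PHAS UMI and 1056 CPM at 2 to 4, against 845.3 CPM in the negative cells. By length the direction differed. At 1 21PHAS UMI SGS3 was at 405.5, 817.3 and 1420 CPM, against 673.3, 938.5 and 1075 CPM in the negative cells. At 2 to 4 it was at 873.4, 2262 and 1143 CPM, with only 6 UMIs at 0.75 mm. In every pool with at least 3 cells of each class SGS3 was higher in the positive cells, with the widest gap in pool 5 of set 7.21 at 1823 against 1192 CPM.

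**Figure D4:**
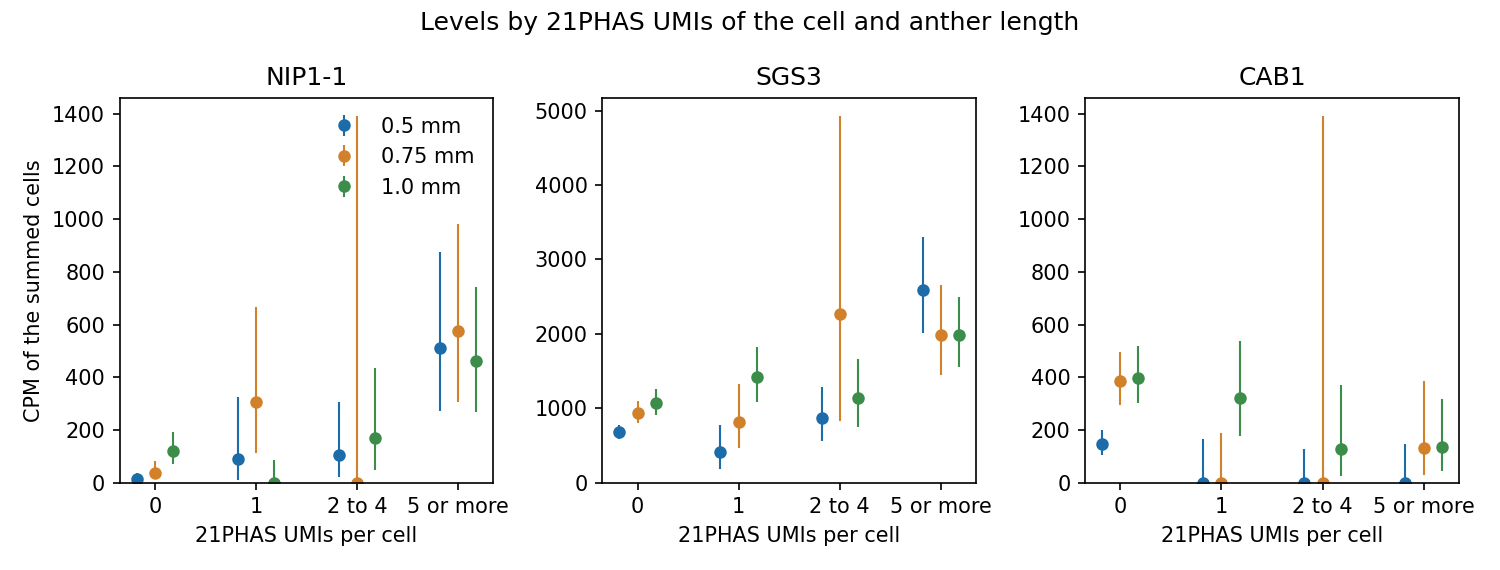
CPM of NIP1-1, SGS3 and CAB1 in summed cells with 0, 1, 2 to 4 and 5 or more 21PHAS UMIs at 0.5, 0.75 and 1.0 mm, with exact 95% Poisson intervals that cover counting error only. NIP1-1 stands highest in the cells with 5 or more at each length and SGS3 at 0.5 and 1.0 mm, and the interval of the 3 cells with 2 to 4 at 0.75 mm spans most of each panel.

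None of the 10 microRNA precursor rows had enough UMIs to be tested. The precursor zma-MIR2118f, of the family that targets 21PHAS transcripts, had 3 UMIs in 3 positive cells, 1 at 0.5 mm and 2 at 1.0 mm, and 2 of these cells were strong. It had 0 UMIs in the negative cells, which allows up to 5.21 CPM, against 13.3 CPM in the positive cells (2.75 to 38.9, exact 95% Poisson interval). The single UMI of zma-MIR2275c, of the family that targets 24PHAS transcripts, also lay in a strong cell. Counts this low show where the molecules were found and give no measured difference.

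Of 10 aquaporin rows 6 were tested, 1 was higher (NIP1-1), against 0.844% of all genes tested, and 5 were not called, with a median log2 fold change of 0.47 against -0.03 over all genes. The plasma membrane aquaporin PIP2-2 was at 301.6, 312.01 and 336.5 CPM in the positive and 131.02, 186.5 and 185.1 CPM in the negative cells. These groups did not overlap, as for 310 of the 3438 genes tested, and the log2 fold change was 0.92 (SE 0.29, adjusted p = 0.0975). The tonoplast aquaporin TIP1-1 was at 222.9, 2429 and 980.8 CPM against 309.3, 1081 and 669.0 CPM, with no common direction over the lengths. Its log2 fold change was 0.55 without a call, 0.88 and called with depth matched within pools, and -0.62 without a call when the recurring wells were left out. In the strong cells TIP1-1 ran from 0 to 35 UMIs per cell, with a median of 1.

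Lists of other functions held no call, and with 0.844% of all genes called higher and 0.175% lower, lists this short say little. In the chromatin and DNA replication list 0 of 5 tested members passed, with a median log2 fold change of 0.02. The flap endonuclease FEN1 was at 131.1, 44.6 and 38.5 CPM in positive and 196.5, 167.8 and 106.8 CPM in negative cells (log2 fold change -1.10, SE 0.40, adjusted p = 0.260). The other 4, DMT105, HMGIY2, MNB1B and ROA2, lay between -0.22 and 0.21. Of the patterning regulators 0 of 3 passed: the receptor-like kinase gene TD1 had a log2 fold change of -0.66 (adjusted p = 0.566), the LOB-domain gene LBD6 of 0.21 and SCR, a regulator of radial patterning, of -0.04. The tubulin, cytosolic ribosomal protein, pollen, and mitochondrial chaperonin and ATP synthase lists had 0 calls among 4, 4, 3 and 5 tested members.

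The remaining symbols with the smallest p-values did not pass and are given as values. Above 0 were the plastid genes ndhH at 1.07 (SE 0.45), psbA at 0.76 (SE 0.41), psbH at 0.68 (SE 0.32) and ndhF at 0.60 (SE 0.26), the tubulin gene TUBA6 at 0.48 (SE 0.28) and BX9, a benzoxazinoid glucosyltransferase, at 0.44 (SE 0.27), all as log2 fold changes. Below 0 were RBCS, the Rubisco small subunit, at -1.67 (SE 0.89), EZ1 at -1.12 (SE 0.49), C2, a chalcone synthase, at -0.91 (SE 0.38), the mitochondrial chaperonin CPN60II at -0.76 (SE 0.32), the adenine nucleotide carrier ANT2 at -0.52 (SE 0.29), GAPC2 at -0.50 (SE 0.24) and RPS21 at -0.48 (SE 0.31). Their adjusted p-values ran from 0.358 to 0.687.

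With the class limit raised to 5 21PHAS UMIs, 32 of 2558 tested genes were higher in the strong cells (1.25%) and 2 lower (0.0782%). Of the 35 genes called at 1 UMI, 34 were tested here, all in the same direction, and 23 were called. The strong cells are part of the positive cells and the negative cells are the same, so this overlap is a description. CAB1 missed the threshold at -1.87 (SE 0.51, adjusted p = 0.0583), with 8 UMIs in the strong cells. Without the recurring well numbers, which left 11 strong cells, 60 of 1959 genes were higher and 90 lower, and the median log2 fold change over all of these genes was -0.36. Against the negative cells nearest in depth within length, 433 genes could be tested for the strong cells, and 28 were higher (6.47%) and 0 lower (0.0%). Besides NIP1-1 and SGS3, the higher genes included TIP1-1, ndhF and BX9, at log2 fold changes of 3.38, 1.87 and 1.83. Against all negative cells, the same strong cells gave 0.84, 0.84 and 0.70 without a call. These calls thus depend on which negative cells were taken. At 0.5 mm TIP1-1 was at 196.5 CPM in the strong cells and 309.3 CPM in all negative cells. In this pairing and in that within pools, the negative sums of NIP1-1 alone would not have passed the filter on low counts. In the pairing within pools, chosen after seeing the data, 6 genes were higher, NIP1-1 and ndhF among them, while SGS3, TIP1-1 and BX9 were not called.

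For all positive cells the result depended on how depth was matched, and at 1.0 mm neither matching made it equal, with 104001 UMIs in the positive cells and 66180 or 59801 in the matched negative cells. With negative cells matched within pools, 11 of 1693 genes were higher (0.65%) and 3 lower (0.177%), and all 21 of the earlier calls that were tested kept their direction. Those calls came from the same positive cells, and the matched negative cells are among the earlier ones, so the kept direction is a description. NIP1-1 was called at 2.05 (SE 0.47, adjusted p = 0.00923) and CAB1 at -1.59 (SE 0.41, adjusted p = 0.0331). The matched negative sums of NIP1-1 and the positive sums of CAB1 alone would not have passed the filter on low counts. These p-values are therefore given as values and not as support. With negative cells matched within lengths, edgeR called 0 of 1763 genes, of which 9.42% had an unadjusted p under 0.05. There NIP1-1 had a log2 fold change of 2.28 (SE 0.55, adjusted p = 0.123). Cells with exactly 1 21PHAS UMI gave 0 calls among 2437 genes by edgeR, and 69 of these passed 0.05 before adjustment. The part of depth and of the recurring wells in the differences was not tested beyond these values.

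**Figure D5:**
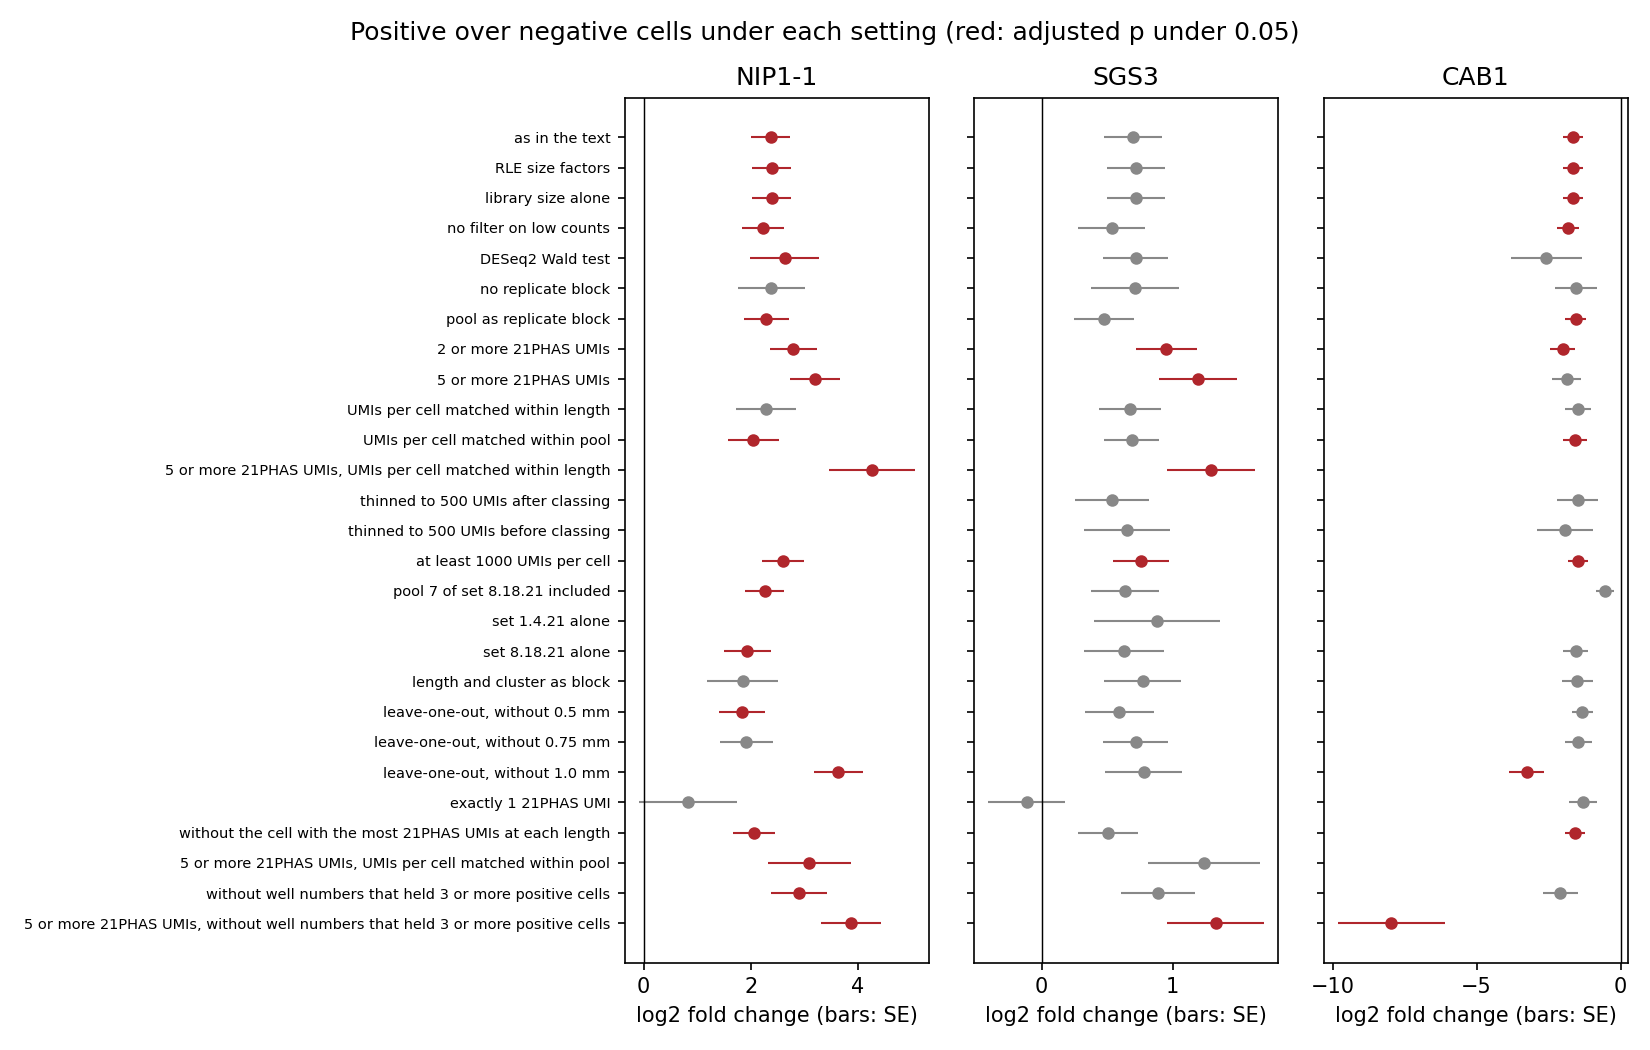
Log2 fold change of NIP1-1, SGS3 and CAB1, positive over negative cells, with standard errors as bars, for the comparison in the text and each alternative in which the gene could be tested; red marks an adjusted p under 0.05. NIP1-1 stays above 0 and CAB1 below 0 throughout, while SGS3 lies at -0.11 for cells with exactly 1 21PHAS UMI and above 0 elsewhere.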

How the data were processed

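The authors deposited 1 table of raw UMI counts, with 22173 rows and 2182 cells, each cell a GEO sample. The submitters' processing notes name HISAT2 and the build B73 RefGen_v4; for versions, counting tool, strand use and filters the sources used here give nothing. Reads of overlapping genes and near-identical copies may have been split. The members, gene lists and comparisons were chosen with earlier results of these data known.

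Cells of 0.5, 0.75 and 1.0 mm with at least 500 UMIs were kept, without pool 7 of set 8.18.21 at 0.5 mm; 219 cells of other sets, all of 2.0 mm, were not used. Each well received a sorted cell; doublets were not searched for. This left 109, 133 and 141 cells, 383 in all, with 303 negative. Counts were summed per length and class, giving 44871 to 274770 UMIs per sum without PHAS rows, which were also left out of library sizes and tests. edgeR 4.0.16 in R 4.3.3 tested classes (TMM, filterByExpr, length as block, quasi-likelihood F-test, Benjamini-Hochberg over all genes tested, false discovery rate 0.05); the script was tested on simulated data. Length pairs the sums: over 3438 genes, deviations of the positive and negative sums from their class means correlated at 0.60, 0.28 and 0.37. The replicate numbers only name cells. SE is the log2 fold change divided by the root of F, and CPM is UMIs per 1000000 UMIs without PHAS rows (for 21PHAS and 24PHAS, of all UMIs). Intervals and floors (3 counts) cover counting error only. Clusters are from scanpy 1.11.5 (2000 variable genes, 20 components, 15 neighbours, Leiden resolution 1.0). DESeq2 1.42.0 and the settings in the closing section were alternatives.

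Named were rows with a symbol that passed, then symbols with the smallest p up to 20, tested members of 4 lists (small RNA machinery, chromatin and DNA replication, patterning, microRNA precursors), and of unnamed IDs the 2 highest and 2 lowest fold changes of the same sign at all 3 lengths and at least 50 mean CPM. The reference table, of another assembly, matched 0 of the v4 IDs. No sequence of PHAS loci or microRNAs was used here.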

Additional observations from a re-analysis of the deposited data

Results flagged for a closer look

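Signals outside the comparison were seen in 4 places. Dixon's test, which with 4 pools marks only a value far from all others, marked no pool at 0.75 or 1.0 mm, and the 3 pools of 0.5 mm were not tested. The pools nonetheless differed widely, with 21PHAS transcripts at 63.1 to 5597 CPM at 0.75 mm and 0 to 2276 CPM at 1.0 mm. At 1.5 mm, a length not compared, 4 cells (3.01%) had 5 or more 21PHAS UMIs, while at 1.25, 1.75 and 2.0 mm 0 cells did, which allows shares of up to 2.05, 2.13 and 1.67%. Pool 7 of set 8.18.21 at 0.5 mm, left out by the rule, had 24PHAS transcripts at 7081 CPM, against 0 to 83.3 CPM in the 11 pools used. The 85 cells of these lengths with under 500 UMIs held 8 21PHAS UMIs, in 7 cells. The cells with 5 or more 21PHAS UMIs held 21 24PHAS UMIs, against 1 in the negative cells.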

How the results depend on the processing

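Against 29 genes higher and 6 lower, RLE size factors and library size alone each gave 30 and 6, no filter 34 and 4, at least 1000 UMIs per cell 29 and 9, a class limit of 2 UMIs 28 and 8, and pool 7 included 26 and 5. Fewer were called by DESeq2 (9 and 0, 68 at unadjusted p under 0.05), with the pool as replicate block (15 and 3), in set 8.18.21 alone (8 and 4) and with length and cluster as block (1 and 0). The calls were 11 and 3 with depth matched within pools, 32 and 2 at 5 or more UMIs, and 28 and 0 at 5 or more UMIs with depth matched. With no replicate block 0 and 0 were called (87 at unadjusted p under 0.05), with depth matched within lengths 0 and 0 (9.42% of genes), with cells thinned to 500 UMIs after or before classing 0 and 0 (27 and 43) and in set 1.4.21 alone 0 and 0 (6). Leaving out 1 length gave 5 to 27 higher and 0 to 4 lower.

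Alternatives chosen after seeing the data gave 0 and 0 at exactly 1 UMI, 12 and 3 without the cell with the most 21PHAS UMIs at each length, 12 and 1 without recurring wells, 6 and 0 at 5 or more UMIs matched within pools, and 60 and 90 at 5 or more UMIs without recurring wells. Most of these settings test fewer genes than the 3438 tested here, but not DESeq2 or the setting without the top cells, and other causes were not tested. NIP1-1 was called in 18 of 23 alternatives that tested it, CAB1 in 10 of 23 and SGS3 in 5 of 26. The alternatives share most of their cells, and those where a gene missed the filter are not counted, so these tallies are a description and not support. With pool 7 included CAB1 was at -0.55 (adjusted p = 0.628). The share of positive cells at 0.5, 0.75 and 1.0 mm was 13.8, 9.02 and 13.5% after thinning, 5.50, 5.26 and 5.67% at 5 or more UMIs, and 32.95% at 1.0 mm with at least 1000 UMIs per cell. Depth limits what is seen: a negative cell may hold 21PHAS transcripts that were not captured.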

Other observations

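Values of the 59 cells with 1 to 4 21PHAS UMIs stand here beside those of the strong cells, which are deeper, without a test. Of these 59 cells 11 had a NIP1-1 UMI, with at most 2 in a cell, while 11 of the 21 strong cells had at least 2. Both a NIP1-1 and an SGS3 UMI were found in 14 of the 21 strong cells and in 7 of the 59 others. CAB1 had 8 UMIs in 5 of the 21 and 17 UMIs in 8 of the 59 cells. The strong cells came from 17 different well numbers, and 10 of them lay in the recurring wells, whose cells together held 20.8% of all 21PHAS UMIs. Outside those wells 43 cells were positive (13.0%), a share lowered by the way the wells were picked.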
